A study of Rattus norvegicus with 16 samples.

Results

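The genes described here are Id1 and 9 genes set beside it, 10 of the 26269 gene names on the array, namely Id2, Id3, Id4, Smad6, Smad7, Bmp2, Bmp4, Bmpr1a and Hamp. Id1 had been chosen because its array signal in the control clone CN-10 exceeded that of the 3 groups with silenced Pdrg1, so its differences from CN-10 are given as a description with no test. The other 9 genes were chosen by name for their place in bone morphogenetic protein (BMP) signalling. Earlier results of these data were known at that choice. Their p-values and counts are thus not those of a list set without the data. All 10 genes were found on the array, with 2 probes for Id2 and 1 for each of the others. RNA from rat hepatoma H35 cells was hybridized to 16 one-color arrays, 4 biological replicates for each of 4 groups. CN-10 was a stable clone carrying a plasmid with a negative control shRNA sequence, 4-18 was a stable clone carrying the shRNA4 plasmid against Pdrg1, 3-44 was a stable clone carrying the shRNA3 plasmid, and shRNA3T was a pool of cells transiently transfected with shRNA3 and enriched. All cells were grown with 10% serum and 2 mM glutamine and were first selected with 1.8 mg/ml G418. Selection of the 3 clones went on at 4 mg/ml, which the pool did not receive. The 4 groups hold no control pool. In comparisons of shRNA3T with CN-10, pool against clone, final G418 dose and silencing thus cannot be told apart. The labels state that clones were kept for reproducible behavior by RT-qPCR. Each stable group is 1 clone, so clone and plasmid cannot be told apart, and the 4 replicates of a group measure the spread within that clone or pool. The 4 arrays of each group lay on a slide of their own (group and slide cannot be told apart either), and the slide of 4-18 was read on another day than the remaining 3, so the differences of 4-18 from each of the other groups and the scan day cannot be told apart, and the 3 comparisons with CN-10 share the same 4 control arrays.

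BMPs are secreted ligands that bind pairs of type I receptors, such as Bmpr1a, and type II receptors. The activated type I receptor phosphorylates Smad1, Smad5 and Smad9, which enter the nucleus with Smad4 and bind GC-rich elements of target genes. Among the usual targets are the Id genes, whose proteins bind E proteins and keep them off DNA, and the inhibitory Smads Smad6 and Smad7, which act back on the receptors. In hepatocytes the pathway also controls Hamp, the gene of hepcidin, the liver hormone that lowers the export of iron into plasma.

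Promoter sequences are shown for Hamp, which had the widest range of signals among the members, for Id1, and for Smad7, as the bases upstream of the annotated gene start (RefSeq, build GRCr8), read 5′ to 3′ on the strand of the gene. Capitals mark GGCGCC, a GC-rich motif of Smad1 and Smad5 that reads the same on both strands.
Hamp: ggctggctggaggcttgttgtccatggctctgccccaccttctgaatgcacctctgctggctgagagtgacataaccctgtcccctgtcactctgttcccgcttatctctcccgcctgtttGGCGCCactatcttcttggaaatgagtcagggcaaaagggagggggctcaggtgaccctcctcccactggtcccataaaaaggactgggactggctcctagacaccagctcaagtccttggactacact
Id1: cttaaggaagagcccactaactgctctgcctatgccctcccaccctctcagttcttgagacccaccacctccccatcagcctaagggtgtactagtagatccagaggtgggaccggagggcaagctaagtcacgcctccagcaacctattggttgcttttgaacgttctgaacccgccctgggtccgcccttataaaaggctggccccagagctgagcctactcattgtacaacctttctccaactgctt
Smad7: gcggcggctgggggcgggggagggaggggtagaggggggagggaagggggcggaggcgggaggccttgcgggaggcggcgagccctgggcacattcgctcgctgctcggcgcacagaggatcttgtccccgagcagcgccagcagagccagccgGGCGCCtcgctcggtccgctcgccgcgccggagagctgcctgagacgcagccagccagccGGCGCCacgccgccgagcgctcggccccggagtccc
The Hamp window is chr1:95300272-95300521 on the minus strand, the Id1 window chr3:161671314-161671563 on the plus strand and the Smad7 window chr18:71263258-71263507 on the plus strand, each of 250 bases. GGCGCC was present 1 time in the Hamp window, from base -129 to base -124 counted from the gene start, and 2 times in the Smad7 window, from -96 to -91 and from -36 to -31. It was not in the windows of Id1, Id2, Id3, Id4, Bmp4 or Bmpr1a, and the table used here gave no window for Smad6 and Bmp2. Of the 33469 windows of the same length, 8.69% held GGCGCC. The motif CAGAC (or GTCTG on the other strand), a Smad-binding element, was found only in the Bmp4 window, 2 times, and in 42.9% of all windows. A match of letters is a description of the sequence and not a binding site.

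Detection divided the members. On each of the 16 arrays the probes of Id1, Id2, Smad6, Smad7, Bmpr1a and Hamp were well above background. The other 4 members, Id3, Id4, Bmp2 and Bmp4, reached that level in all 4 arrays of no group. Their log2 signals lay between 6.01 and 6.45 for Id3, 5.93 and 6.32 for Id4, 6.14 and 6.38 for Bmp2, and 6.03 and 6.37 for Bmp4, which was well above background on 1 of 16 arrays, in 3-44. No fold change is given for these genes. The ligand genes Bmp2 and Bmp4 and the Id genes Id3 and Id4 thus have only an upper bound at these probes.

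Hamp showed the widest range. Its probe lies at chr1:85978236-85978295 (rn4, minus strand) and was printed 10 times per array. In CN-10 the log2 normalized intensity of Hamp was 11.04, 10.89, 11.47 and 10.98. In 4-18 it was 8.81, 8.97, 8.68 and 8.81. In 3-44 it was 10.69, 10.67, 10.24 and 10.85, just below the lowest control array. In shRNA3T it was 7.00003, 7.03, 6.96 and 6.92. None of the silenced groups overlapped CN-10, and the silenced groups did not overlap each other. Hamp fell by 4.12 ± 0.13 (SE of the fit, n = 4 per group) on the log2 scale in shRNA3T, to 5.76% of the control signal (limma adjusted p = 7.27e-11). In 4-18 Hamp fell by 2.28 ± 0.13, to 20.6% of the control signal (limma adjusted p = 1.25e-08). In 3-44 Hamp fell by 0.48 ± 0.13, to 71.5% (limma adjusted p = 0.0360). The two-sided exact permutation p was 0.0286 in all 3 comparisons, the smallest that 4 arrays against 4 can give. The call in 3-44 was lost when any of 6 arrays was left out (CN-10 replicate 1 or 3, 3-44 replicate 1, 2 or 3, or shRNA3T replicate 3), with adjusted p up to 0.105. It was also lost under 9 of 14 other settings. The background offset of 50 shortens the fold change of a dim signal, and with the processed signal of the scanner software in place of normexp the log2 difference of Hamp in shRNA3T reached -5.69 over the 14 settings.

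Hepatocyte genes were examined beside Hamp. Of 8 hepatocyte lineage markers (Alb, Afp, Ttr, Apoa1, Tf, Serpina1, Fga and Hnf4a), 3 fell and 1 rose in 4-18, 0 fell and 3 rose in 3-44, and 1 fell and 3 rose in shRNA3T. Of all probes, 12% were called lower and 11.6% higher in 4-18, 4.37% and 3.48% in 3-44, and 6.85% and 5% in shRNA3T. Alb, the gene of serum albumin, had mean log2 signals from 17.14 (3-44) to 17.31 (4-18) over the 4 groups. Ttr, which encodes the carrier transthyretin, rose in all 3 groups (limma log2 fold changes 2.93, 2.84 and 2.39). The 3 markers that fell in 4-18 were Apoa1, Tf and Fga, with limma log2 fold changes from -2.12 (Apoa1) to -1.25 (Fga). In 3-44 Apoa1 and Fga rose instead (2.18 and 1.66). In shRNA3T Afp fell (-0.87), and Serpina1 and Fga rose (2.65 for Fga). The summed signal of the 8 markers on the log2 scale ranged from 17.57 to 18.72 in CN-10, from 18.05 to 18.69 in 4-18, from 18.80 to 19.31 in 3-44 and from 18.26 to 18.98 in shRNA3T. Of 5 endothelial markers, Pecam1, Tek and Tie1 were well above background on 0 of 16 arrays, Kdr on 6 and Cdh5 on 16. Of 6 stellate cell or fibroblast markers, Dcn and Lum were so on 0 arrays, Pdgfrb on 1, Col3a1 on 7, Col1a2 on 15 and Col1a1 on 16. Of 5 leukocyte markers, Ptprc was so on 0 arrays, Cd3e on 1, Cd68 and Csf1r on 15 and Itgam on 16. Of the 16 markers of those 3 lineages, Cd68 fell in 4-18 and Col1a1 rose in shRNA3T (limma log2 fold changes -0.43 and 0.52). The part of the marker changes in the Hamp result was not tested. On bulk RNA, fewer cells expressing a gene and less RNA per cell cannot be told apart.

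Smad6, which blocks the activated BMP receptor and competes for Smad1, was lower in all 3 silenced groups. Its probe lies at chr8:68144439-68144498 (rn4, minus strand). In CN-10 the log2 intensity of Smad6 was 9.61, 9.44, 9.42 and 9.02. In 4-18 it was 8.60, 8.29, 8.02 and 8.04, and in 3-44 it was 8.82, 8.62, 8.39 and 8.35. In shRNA3T it was 7.89, 7.85, 7.89 and 7.80. All silenced arrays lay below the lowest control array, and the lowest signals were those of the pool. Smad6 fell by 1.14 ± 0.15 (SE, n = 4 per group) on the log2 scale in 4-18 (2.20-fold, limma adjusted p = 4.18e-05). It fell by 0.83 ± 0.15 in 3-44 (1.78-fold, limma adjusted p = 0.00225) and fell by 1.52 ± 0.15 in shRNA3T (2.86-fold, limma adjusted p = 7.30e-06). The exact permutation p was 0.0286 in each comparison. The call in 3-44 was lost without scaling between the arrays (the deposited table, adjusted p = 0.164) and with normexp values scaled to the 75th percentile (adjusted p = 0.104), where the log2 differences were -0.98 and -0.87. No array left out changed the 3 calls of Smad6.

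Smad7, the other inhibitory Smad, which acts on BMP and TGF-beta receptors alike, differed less. Its probe lies at chr18:72323004-72323062 (rn4, plus strand). In CN-10 its log2 intensity was 10.62, 10.79, 10.74 and 10.72, in 4-18 10.92, 10.51, 10.53 and 10.32, in 3-44 10.53, 10.04, 10.00 and 10.06, and in shRNA3T 10.67, 10.19, 10.06 and 10.10. Replicate 1 gave the highest Smad7 signal of its group in 4-18, 3-44 and shRNA3T. Smad7 fell by 0.56 ± 0.15 on the log2 scale in 3-44 (1.48-fold, limma adjusted p = 0.0363, exact permutation p = 0.0286), a call lost when any of 7 arrays was left out (all 4 of CN-10 and 3-44 replicate 2, 3 or 4) and under 5 of 14 other settings. In shRNA3T the difference was -0.46 ± 0.15 (limma adjusted p = 0.0677) and in 4-18 it was -0.15 ± 0.15 (limma adjusted p = 0.564), and neither passed the test. Smad7 stayed short of the test under 8 of 14 other settings in shRNA3T and under 10 of 14 in 4-18. With the deposited table it passed in 4-18 (-0.79, limma adjusted p = 0.0207). With replicate 1 of every group left out, Smad7 was lower by 0.63 in shRNA3T (adjusted p = 0.000239) and by 0.30 in 4-18 (adjusted p = 0.0127).

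Id1 had been chosen for its difference from CN-10. Its probe lies at chr3:143087157-143087216 (rn4, plus strand) and was printed 10 times per array. In CN-10 the log2 intensity of Id1 was 12.59, 12.62, 12.56 and 12.48. In 4-18 it was 9.33, 9.97, 9.90 and 10.17, in 3-44 it was 11.06, 11.52, 11.36 and 11.60, and in shRNA3T it was 9.84, 9.60, 10.01 and 9.66. All silenced arrays lay below all control arrays. The log2 difference of Id1 from CN-10 was -2.72 for 4-18, -1.18 for 3-44 and -2.78 for shRNA3T, each ± 0.16 (SE, n = 4 per group). On the linear scale the control signal was 6.58, 2.26 and 6.88 times that of the respective silenced group. With the deposited table the Id1 difference in 4-18 was larger, at -3.36 on the log2 scale. The Id1 probe is separated by 266 kb from that of the silenced gene, Pdrg1, at chr3:143353382-143353441 (rn4), with the probes of 8 other gene names between them.

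Id2, the other Id gene detected, passed the test in the pool but in neither stable clone. It was read at chr6:42782548-42782897 (rn4, minus strand), a pair of ends that spans more than the 60 bases of the probe. In CN-10 the log2 intensity of Id2 was 13.69, 13.31, 13.42 and 13.81. In 4-18 it was 12.93, 14.64, 13.83 and 13.50, in 3-44 13.64, 13.53, 12.58 and 14.0026, and in shRNA3T 12.78, 12.04, 12.22 and 12.48. Both stable clones overlapped the control clone, and all 4 arrays of the pool lay below it. Id2 fell by 1.18 ± 0.33 on the log2 scale in shRNA3T (2.27-fold, limma adjusted p = 0.0284, exact permutation p = 0.0286). The difference was 0.17 ± 0.33 in 4-18 (limma adjusted p = 0.781) and -0.12 ± 0.33 in 3-44 (limma adjusted p = 0.900), with 95% intervals from -0.54 to 0.87 and from -0.82 to 0.58. The call in shRNA3T was lost when any of 6 arrays was left out (CN-10 replicate 1, 3 or 4, or shRNA3T replicate 2, 3 or 4), with adjusted p up to 0.0845, and under 2 of 14 other settings (normexp values scaled to the 75th percentile, adjusted p = 0.0804, and the deposited table, 0.131). The second probe of Id2 was well above background on none of the 16 arrays and carries no fold change.

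Bmpr1a, the type I receptor, passed the test in none of the 3 comparisons. Its log2 intensity was 10.84, 10.57, 10.56 and 11.15 in CN-10, 10.26, 10.80, 10.74 and 10.57 in 4-18, 11.35, 11.03, 10.37 and 10.94 in 3-44, and 10.97, 10.85, 10.76 and 10.68 in shRNA3T. All 3 silenced groups overlapped CN-10. The log2 differences were -0.19, 0.14 and 0.03, each ± 0.19, with limma adjusted p of 0.535, 0.762 and 0.963 and 95% intervals that reached from -0.59 to 0.54 over the 3 comparisons.

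**Figure D1:**
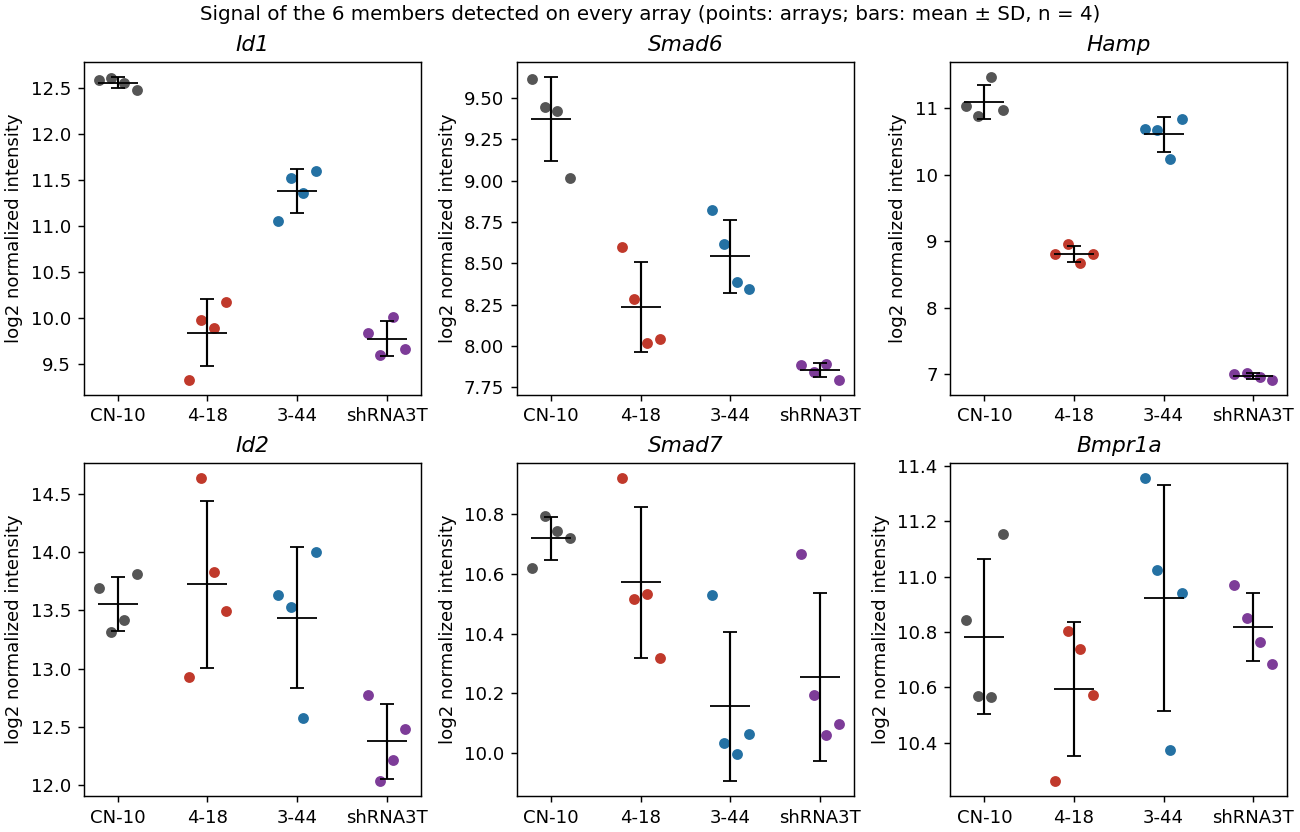
Log2 normalized intensity of the 6 detected members by group, with points for the 4 arrays of a group (replicate 1 to 4 from left to right) and bars for the mean ± SD. The 4 arrays of Hamp in shRNA3T sit between 6.92 and 7.03, and those of CN-10 between 10.89 and 11.47.

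Over the 9 members other than Id1, 2 passed the test in 4-18 (Smad6 and Hamp, limma adjusted p under 0.05), both lower, where 12% of all 30366 probes tested were called lower. In 3-44, 3 passed (Smad6, Smad7 and Hamp), all lower, where 4.37% of all probes were called lower. That count was 1 to 3 with 1 array left out (1 without CN-10 replicate 1 or 3 or 3-44 replicate 2 or 3) and 0 with the deposited table or with normexp values scaled to the 75th percentile. In shRNA3T, 3 passed (Id2, Smad6 and Hamp), all lower, where 6.85% of all probes were called lower. Smad6 and Hamp also differed by at least 2-fold in 4-18, and Id2, Smad6 and Hamp in shRNA3T. Smad6 in 4-18 fell short of 2-fold with normexp values scaled to the 75th percentile (-0.73 on the log2 scale). Id2 in shRNA3T did so with the mean over its probes (-0.60). The shares of all probes that were lower by at least 2-fold were 3.36% in 4-18 and 1.17% in shRNA3T. In 3-44, where that share was 0.721%, 0 of the 9 members reached 2-fold by the limma test, and also 0 at an unadjusted p under 0.05. The median log2 difference of the 9 members was -0.03 in 4-18, -0.08 in 3-44 and -0.12 in shRNA3T, set by the dim genes at background, beside medians over all probes of 0.0057, -0.0031 and -0.0072. Smad6 and Hamp are the members that passed in all 3 comparisons, which share their control arrays. No share of all probes called in all 3 is given beside this, so the overlap is a description only.

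**Figure D2:**
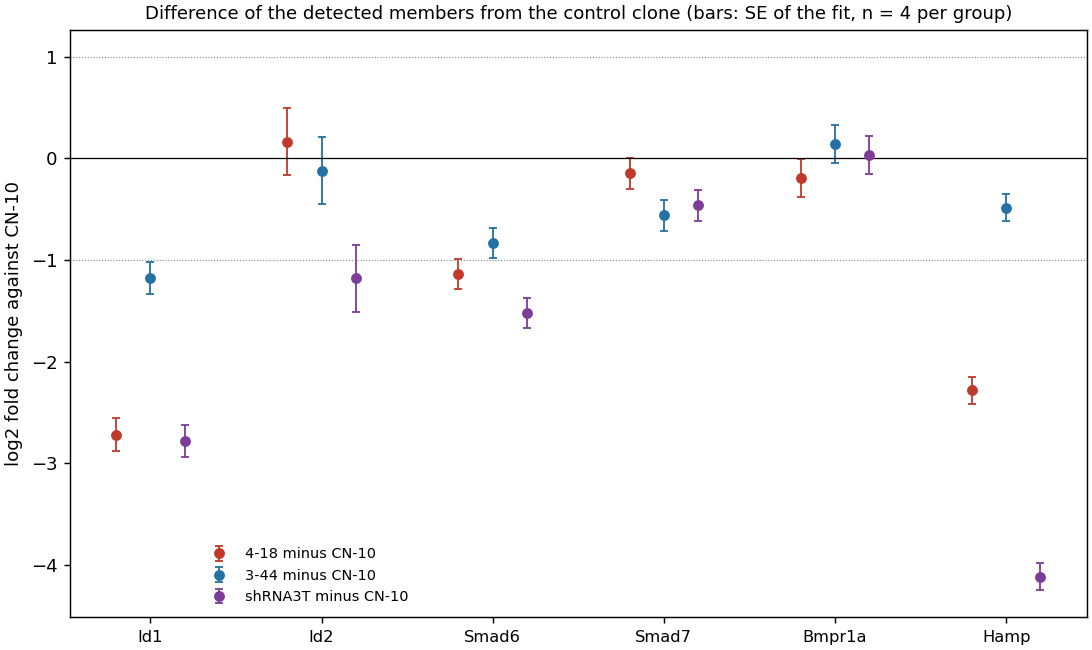
Log2 fold change of the 6 detected members against CN-10 in 4-18, 3-44 and shRNA3T, with bars for the SE of the limma fit and dotted lines at 2-fold. Hamp, Smad6 and Id1 lie below 0 in all 3 groups, from -0.48 to -4.12.

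Differences between silenced groups were tested next, in comparisons that had not been used to choose Id1. Id1 was lower in 4-18 than in 3-44 by 1.54 ± 0.16 on the log2 scale (limma adjusted p = 5.60e-06) and lower in shRNA3T than in 3-44 by 1.61 ± 0.16 (limma adjusted p = 1.46e-05). These groups did not overlap (exact permutation p = 0.0286). Between 4-18 and shRNA3T the Id1 difference was 0.06 ± 0.16, with a 95% interval from -0.28 to 0.41 (limma adjusted p = 0.839). Among the silenced groups Id1 was thus highest in 3-44, with 4-18 and shRNA3T below it and not separated beyond their spread. CN-10 stood above all 3 by the choice of Id1, a step that was not tested. The transient pool and clone 3-44 carried the same shRNA3 plasmid. They differed in being a pool or a clone and in the final G418 dose, which cannot be told apart.

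Hamp was ordered CN-10, 3-44, 4-18, shRNA3T, with every neighbouring pair past the test, though the step from CN-10 to 3-44 has the limits given above. It was lower in 4-18 than in 3-44 by 1.80 ± 0.13 (limma adjusted p = 1.97e-07), and higher in 4-18 than in shRNA3T by 1.84 ± 0.13 (limma adjusted p = 2.12e-07). Against 3-44 the pool was lower by 3.63 ± 0.13 (limma adjusted p = 1.58e-09). Smad6 had the same order of means, except that 4-18 stood above 3-44 with normexp values scaled to the 75th percentile. Its signal was lower in shRNA3T than in 3-44 by 0.69 ± 0.15 (limma adjusted p = 0.00655, lost under 2 scalings with adjusted p of 0.127 and 0.465), whereas the differences of 4-18 from 3-44 (-0.31 ± 0.15, limma adjusted p = 0.160) and from shRNA3T (0.38 ± 0.15, limma adjusted p = 0.0846) did not pass. Id2 was higher in 4-18 than in shRNA3T by 1.35 ± 0.33 (limma adjusted p = 0.00835), a call lost with the deposited table (0.61, adjusted p = 0.274). Its difference between shRNA3T and 3-44 was -1.06 ± 0.33 (limma adjusted p = 0.0532). That difference passed under some other settings (quantile normalized processed signal, limma adjusted p = 0.0122) and not under others (deposited table, 0.346). Of the 10 members, 2 were called lower in 4-18 than in 3-44 (10% of all probes), 3 lower in shRNA3T than in 3-44 (5.33%) and 2 higher in 4-18 than in shRNA3T (11.2%).

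**Figure D3:**
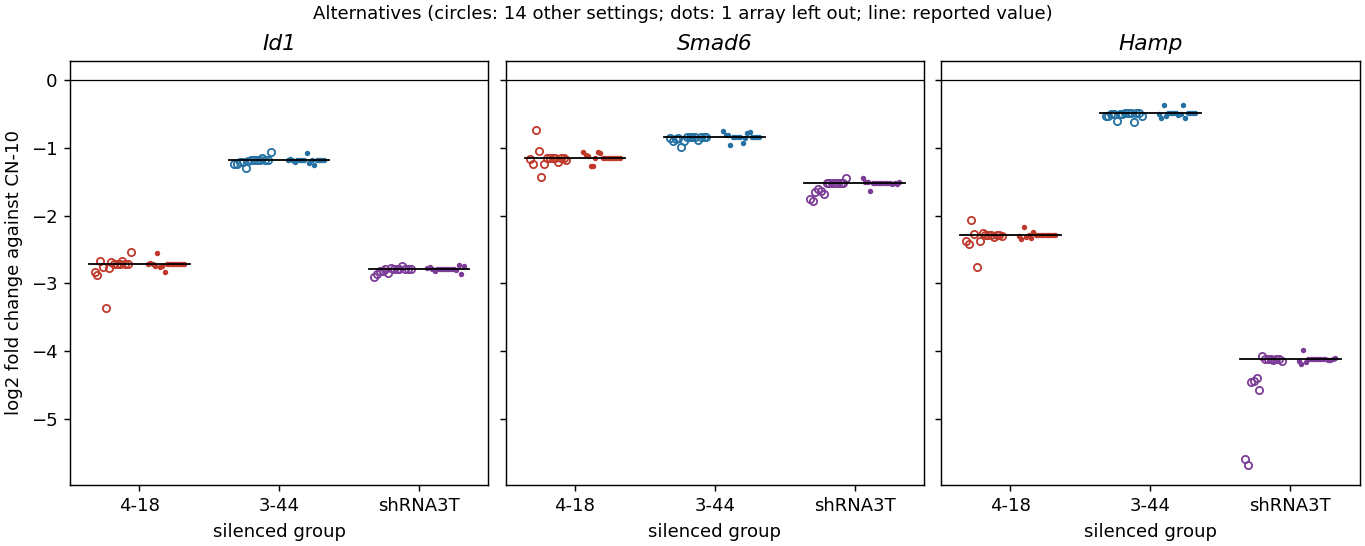
Log2 fold change of Id1, Smad6 and Hamp against CN-10 for each silenced group under 14 other settings (circles), with 1 of the 16 arrays left out in turn (dots) and as reported (line). All values lie below 0, and those of Hamp in shRNA3T reach -5.69 with the processed signal.

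Of 81 further genes of the pathway, 77 were on the array by name, and for 48 every array of 1 or more groups was well above background. In 4-18, 9 were lower and 11 higher by the limma test (11.7% and 14.3% of the list, beside 12% and 11.6% of all probes). In 3-44, 3 were lower and 3 higher (3.9% each, beside 4.37% and 3.48%), and in shRNA3T, 1 was lower and 4 were higher (1.3% and 5.19%, beside 6.85% and 5%). The median log2 differences of the list were -0.0049, -0.010 and -0.037. These counts depend on the arrays and settings. With 1 array left out, the genes called numbered 17 to 20 in 4-18, 3 to 7 in 3-44 (3 without 3-44 replicate 3) and 1 to 6 in shRNA3T (3 or fewer without any 1 of its own 4 arrays or of CN-10 replicates 1 to 3). Over other settings they ran from 5 to 47 in 4-18, from 1 to 11 in 3-44 and from 0 to 21 in shRNA3T.

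Among the 19 further ligand genes, Gdf15, a stress-induced member of the TGF-beta family, rose in 4-18 by 1.75 ± 0.36 on the log2 scale (limma adjusted p = 0.00200). Its signal ran from 11.66 to 12.58 in CN-10, 12.90 to 14.58 in 4-18, 12.84 to 13.84 in 3-44 and 11.41 to 12.50 in shRNA3T, with differences of 1.13 ± 0.36 in 3-44 and -0.47 ± 0.36 in shRNA3T (adjusted p = 0.0691 and 0.508). The call of Gdf15 was lost with the deposited table (adjusted p = 0.114). Bmp10, a ligand gene known from the heart, was the other ligand called in 4-18 (lower, limma adjusted p = 0.0281). Its probe was well above background on 3 of 16 arrays, so the size of its difference is not read. Each is 5.26% of the ligand genes, beside 12% of all probes lower and 11.6% higher. Bmp6, the ligand known to drive Hamp in liver, was well above background on 0 of 16 arrays.

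Of the 11 further receptors and co-receptors on the array, 2 rose in 4-18 (18.2%, beside 11.6% of all probes) and 1 in shRNA3T (9.09%, beside 5%). Acvr2b, a type II receptor for activins and BMPs, rose by 1.01 ± 0.16 in 4-18 (limma adjusted p = 0.000300) and by 0.59 ± 0.16 in shRNA3T (limma adjusted p = 0.0261), and differed by 0.01 ± 0.16 in 3-44 (adjusted p = 0.984). Its other probe had differences of 0.68, 0.32 and 0.03 in that order. The call in shRNA3T was lost when any of 6 arrays was left out (CN-10 replicate 1 or 3 or any array of shRNA3T), and with normexp values scaled to the 75th percentile (adjusted p = 0.149), cyclic loess (0.0521) or the deposited table (0.472), which also ended the call of Acvr2b in 4-18 (0.405).

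Smads and intracellular regulators carry or tune the signal inside the cell. Of 12 on the array, 4 rose in 4-18 (Smad1, Smad4, Smurf2 and Tob2), 1 rose in 3-44 (Tob2) and 2 rose in shRNA3T (Tob1 and Tob2), and 0 were lower by the limma test in any comparison. The shares higher were 33.3%, 8.33% and 16.7%, beside 11.6%, 3.48% and 5% of all probes. With 12 genes a count of 0 lower is close to the shares of all probes called lower (12%, 4.37% and 6.85%). Of the 12 genes, 10 were well above background on every array of a group, as were 18864 of the 30367 probes. The shares of all probes thus include many probes at background. Smad1, which transmits the BMP signal, had log2 differences of 0.34 in 4-18 (limma adjusted p = 0.0324), 0.16 in 3-44 and 0.10 in shRNA3T. Smad4, the shared partner, had differences of 0.53 (limma adjusted p = 0.0137), 0.15 and 0.09. Of 17 extracellular antagonists and modulators, 2 were lower and 2 higher in 4-18, 2 were lower and 1 higher in 3-44, and 0 were called in shRNA3T. The shares lower and higher were 11.8% and 11.8% in 4-18, beside 12% and 11.6% of all probes. In 3-44 they were 11.8% and 5.88%, beside 4.37% and 3.48%. For shRNA3T the shares of all probes were 6.85% and 5%. In 3-44 the antagonist gene Chrd fell by 0.93 (limma adjusted p = 6.93e-05) and Fst, the gene of the activin-binding protein follistatin, rose by 0.90 (limma adjusted p = 0.0112). Bambi was the other gene lower in 3-44, by 0.59 (limma adjusted p = 0.0209).

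Of 9 other target genes of the pathway on the array, 3 fell in 4-18 (Atoh8, Runx2 and Dlx3) and 1 rose (Tmprss6), and Dlx3 alone was called in 3-44 and in shRNA3T, where it fell. The shares lower were 33.3%, 11.1% and 11.1%, beside 12%, 4.37% and 6.85% of all probes. The share higher in 4-18 was 11.1%, beside 11.6% of all probes. Atoh8, a transcription factor gene that responds to BMP in liver, had log2 differences of -0.78 in 4-18 (limma adjusted p = 0.00531), -0.47 in 3-44 and -0.58 in shRNA3T (adjusted p = 0.149 and 0.0512). Tmprss6, the gene of a protease that cleaves hemojuvelin and restrains Hamp, rose by 0.87 in 4-18 (limma adjusted p = 0.000141), with differences of 0.30 in 3-44 and -0.14 in shRNA3T (adjusted p = 0.205 and 0.629).

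The list also held 6 genes of iron sensing and handling (Hfe, Tfr2, Tfrc, Slc40a1, Fth1 and Ftl1). Of these, Tfr2, a transferrin receptor that takes part in the control of Hamp, rose in all 3 groups. Its signal ran from 9.05 to 9.92 in CN-10, 9.93 to 10.98 in 4-18, 10.55 to 11.07 in 3-44 and 9.79 to 10.72 in shRNA3T, and only the pool overlapped the control clone. Tfr2 rose by 1.22 ± 0.25 in 4-18 (limma adjusted p = 0.00242), 1.32 ± 0.25 in 3-44 (limma adjusted p = 0.00416) and 1.00 ± 0.25 in shRNA3T (limma adjusted p = 0.0167). The call in shRNA3T was lost without CN-10 replicate 1 or 2 or shRNA3T replicate 4, with adjusted p up to 0.0609, and with normexp values scaled to the 75th percentile (0.0555). With the deposited table Tfr2 passed in none of the 3 groups (adjusted p = 0.316, 0.129 and 0.157). Tfrc, the main receptor for iron uptake, and Fth1, the heavy chain of ferritin, fell in 4-18 by 0.68 and 0.60 (limma adjusted p = 0.00695 and 0.00491). Of the 6 genes, 33.3% were lower and 16.7% higher in 4-18, beside 12% and 11.6% of all probes. In 3-44 and in shRNA3T 16.7% were higher, beside 3.48% and 5%. All 6 were well above background on every array of a group, whereas the shares of all probes include probes at background. Among the 3 E protein genes, whose products the Id proteins bind, Tcf3 fell in 4-18 by 0.69 (limma adjusted p = 0.04998; 33.3% of the list, beside 12% of all probes).

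**Figure D4:**
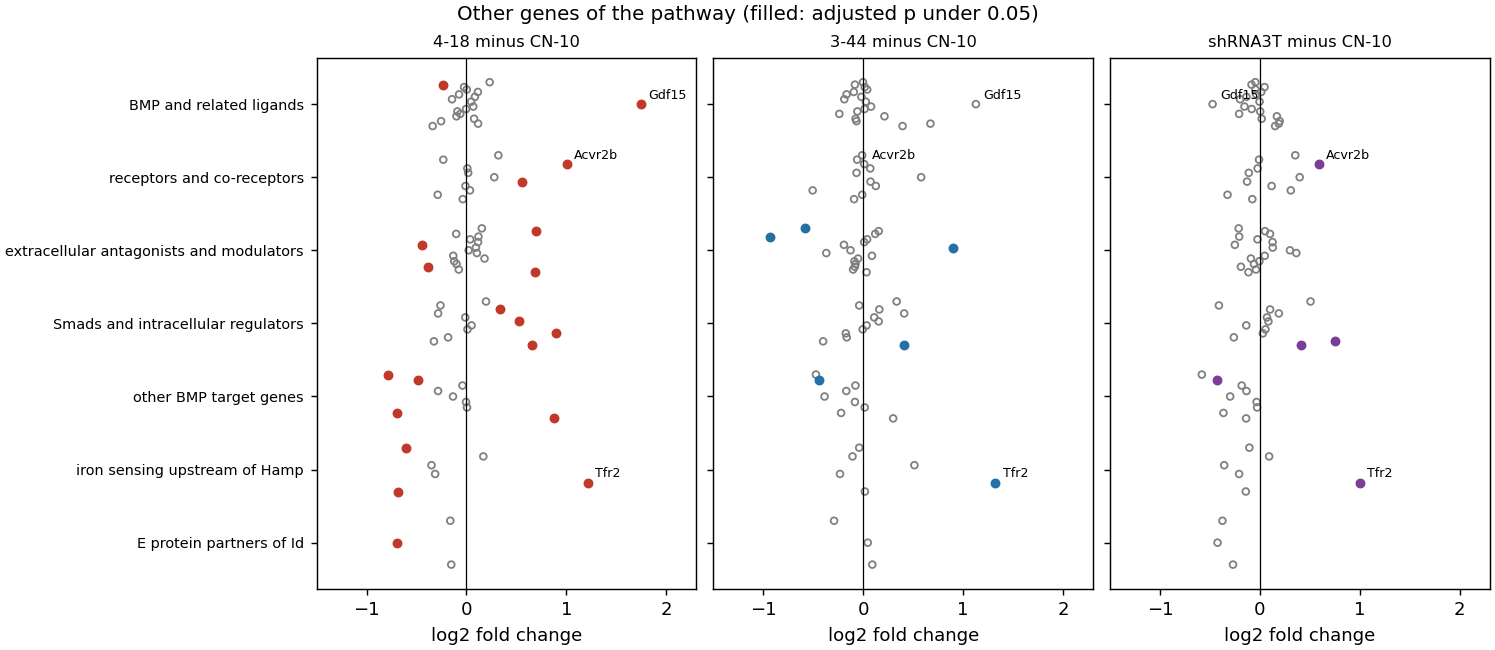
Log2 fold change against CN-10 of the 77 further pathway genes on the array, in rows by role and in panels by silenced group, with filled points for genes past the limma test (adjusted p under 0.05). Tfr2 lies between 1.00 and 1.32 in the 3 panels, and most genes lie near 0.

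Likeness to Id1 was sought among 7505 genes detected on all 16 arrays with no missing value. Only genes named by a plain symbol of letters and digits were included, and not those named by a locus or accession number. The CN-10 mean of each gene was subtracted first. The genes most like Id1 had the smallest root mean square difference to it over the 16 arrays. They were Gpx2, a glutathione peroxidase (0.53 on the log2 scale), Rnase1, a secreted ribonuclease (0.66), Bgn, the matrix proteoglycan biglycan (0.66), C1qtnf6, a secreted C1q-related protein (0.76), and Xkr5 (0.79). The differences of Gpx2 were -3.01 for 4-18, -1.90 for 3-44 and -3.00 for shRNA3T. Hamp was number 6 in this order (0.82) and Smad6 number 30 (1.08). These values describe likeness to a gene chosen for its pattern and were not tested.

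Replicates within groups correlated over probes with r from 0.987 to 0.998, and 53.1% to 74.3% of the spots of an array were well above background. The 75th percentile of the raw signal lay between 1614 and 1946 on the 4-18 arrays and between 2328 and 3692 on the others. The log2 intensity of Pdrg1 was 13.41, 13.88, 13.51 and 13.77 in CN-10, 11.57, 13.33, 13.34 and 13.25 in 4-18, 11.89, 12.86, 12.90 and 12.95 in 3-44, and 12.39, 12.90, 12.97 and 12.90 in shRNA3T. All silenced arrays lay below all control arrays, but the Pdrg1 differences of -0.77, -0.99 and -0.85 did not pass the limma test (adjusted p = 0.129, 0.105 and 0.143). Replicate 1 was the lowest Pdrg1 array of each group. Without replicate 1 of 4-18 the Pdrg1 difference of 4-18 was -0.33 (adjusted p = 0.349), and those of 3-44 and shRNA3T passed (adjusted p = 0.00860 and 0.0149). Without replicate 1 of every group the differences were -0.41, -0.82 and -0.79 and all 3 passed (limma adjusted p = 0.00647, 0.000306 and 0.000212). Both fits were extended to Pdrg1 after the data had been seen. Between silenced groups Pdrg1 did not pass the test (limma adjusted p from 0.702 to 0.913).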

How the data were processed

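RNA of H35 cells from 16 samples, labelled as biological replicates, was hybridized to one-color Agilent arrays, and groups were taken from the sample labels. The authors quantified the scans with Feature Extraction 10.7.3.1. As deposited, the intensity values are the mean and median brightness of each spot, its local background and a processed signal, none of them scaled between arrays. A series table deposited by the authors, used as an alternative, holds score values whose decimal points were lost; once put back, they equalled log2 of normexp-corrected median signals to within 4e-11. Probe positions are those of the file headers (rn4). The settings of the authors' own LIMMA normalization are not given in the sources used here.

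Background was corrected by normexp (offset 50) in limma 3.58.1 under R 4.3.3, arrays were quantile normalized as log2 intensities, control and outlier-flagged spots were left out and spots were averaged per probe. The log2 values were fitted by limma with 1 mean per group over all 16 arrays, and p-values were adjusted by Benjamini-Hochberg over up to 30367 probes. A gene was past the test at an adjusted p under 0.05. Its probe was the one of highest mean. A probe was well above background on an array if more than 50% of its spots carried that flag. Named were all members, pathway genes past the test, at least 2-fold and detected in a group, and the 5 genes likest to Id1; further pathway genes named beside group counts were picked after their values were seen. Members and lists were chosen with earlier results of these data known. The fit was tested on simulated data. The number of arrays limits the precision.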

Additional observations from a re-analysis of the deposited data

Results flagged for a closer look

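For the 6 detected members, 24 groups of 4 arrays were examined for an array far from the others, of which chance marks about 1 in 20. The array of 3-44 replicate 1 stood apart for Smad7, with a gap of 0.877 of the range of its group. For 4 members the silenced groups differed from each other by the limma test. There the clone or pool, the slide, for 4-18 the scan day and for shRNA3T the final G418 dose cannot be told apart from the group. On the log2 scale the difference of 4-18 from 3-44 was -1.54 for Id1 and -1.8 for Hamp, that of shRNA3T from 3-44 was -1.61 for Id1, -0.688 for Smad6 and -3.63 for Hamp, and that of 4-18 from shRNA3T was 1.35 for Id2 and 1.84 for Hamp.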

How the results depend on the processing

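The signs of Id1, Smad6 and Hamp against CN-10 held under 14 other settings and with each of the 16 arrays left out. Leaving out 1 array gave 2 to 2 members past the test in 4-18 (2 to 2 at 2-fold), 1 to 3 in 3-44 (0 to 0 at 2-fold; fewest without CN-10 replicate 1 or 3 or 3-44 replicate 2 or 3) and 2 to 4 in shRNA3T (2 to 3 at 2-fold), and between silenced groups 2 to 3 (4-18 minus 3-44), 3 to 4 (shRNA3T minus 3-44) and 2 to 3 (4-18 minus shRNA3T). Id1 then ranged from -2.83 to -2.55 in 4-18, -1.25 to -1.07 in 3-44 and -2.86 to -2.73 in shRNA3T, and the pathway counts from 17 to 20, 3 to 7 and 1 to 6. Scaling normexp values to the 75th percentile moved the median of all probes in 4-18 from 0.0057 to 0.862 and gave 6 members past the test there (5 at 2-fold), 0 in 3-44, 6 in 4-18 minus 3-44 and 7 in 4-18 minus shRNA3T, with Id3, Id4, Bmp2 and Bmp4 among those called in 4-18 against CN-10 although at background; relative to that median Id1 was -3.53, Smad6 -1.59 and Hamp -2.93 in 4-18. The processed signal so scaled gave 1 in 3-44 and 5 in 4-18 minus shRNA3T, and quantile normalized 1 in 3-44. The deposited table gave 0 in 3-44 and moved Id1 in 4-18 to -3.36, trend with robust moderation gave 1 in 3-44, and a limit of 1.5-fold gave 1 there. Pathway genes past the test became 47 (normexp, 75th percentile) and 5 (deposited table) in 4-18, 2, 1, 3 (trend and robust) and 11 (array weights) in 3-44, and in shRNA3T 8 with the processed signal (10 scaled to the percentile), 0, 0, 8 with cyclic loess, 3 with offset 16, 3 with trend and robust, 21 with array weights, 8 with gene means and 8 without replicate 1. The cause was not tested. Same-numbered arrays of different groups deviated together only in part (r from -0.11 to 0.44 over 24 pairs, 12 over 0.1; in 12 of 24 pairs an array correlated best with its own number). The 6 pairs of replicate 1 had r from 0.18 to 0.44, all best with their own number, a hint of shared deviation from the data and not from the labels, whereas pairs of the other numbers were not all over 0.1. The replicate block gave 4 members in 4-18 minus 3-44, with Smad6 (adjusted p = 0.0394) and Smad7 (0.0216) added, lost the call of Hamp in 3-44 (adjusted p = 0.0599) and added Smad7 in shRNA3T (adjusted p = 0.0202) and Smad6 in 4-18 minus shRNA3T (adjusted p = 0.0140).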
